A study of Homo sapiens with 9 samples.

Results

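MDA-MB-231, a triple-negative breast carcinoma line, carried mRNA of 9 genes that are usually studied in blood or endothelial cells: PTPRC, SLAMF7, CD177, HCLS1, CD83, PECAM1, NLRP3, ICAM1 and DPP4. These 9 genes, of 26364 listed and 13704 tested, were chosen by their measured counts in these libraries, with earlier comparisons of the GLO1-depleted clones with control cells known. Their differences between each clone and control cells are therefore given as a description, with no test, and nothing is read from them about the genes as a group. The shGLO1#1 and shGLO1#2 groups were 2 clones of MDA-MB-231 with a stable shRNA against GLO1, the enzyme that detoxifies methylglyoxal, and the shNT group was 1 control clone with a non-targeting shRNA. Each group had 3 libraries of total RNA. With 1 clone for each shRNA, the effect of the shRNA and of the clone cannot be told apart.

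Leukocytes carry surface proteins that set the threshold of their receptors, that bind them to vessel walls and that let them sense danger. PTPRC (CD45), SLAMF7, CD177 and CD83 mark white blood cells, PECAM1 marks endothelium, platelets and leukocytes, and HCLS1 and NLRP3 work inside blood cells. ICAM1 and DPP4 (CD26) are less restricted, since many epithelial and carcinoma cells carry them. Several of these genes are known to answer to inflammatory transcription factors such as NF-kB.

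GLO1 mRNA was 65.4 ± 0.955 CPM (counts scaled to library size, corrected by TMM) in shGLO1#1, 14.7 ± 0.760 CPM in shGLO1#2 and 317 ± 5.63 CPM in shNT (SD, n = 3 libraries each). The libraries held 15314238 to 18495576 counts on genes, so that 1 count was worth 0.0544 to 0.0672 CPM. No library stood apart from its label by its GLO1 level. The p-values below come from edgeR's quasi-likelihood test with Benjamini-Hochberg adjustment over all genes tested, and "called" means that this p was under 0.05 with a log2 fold change beyond 1 in size. They measure the spread between libraries of a clone, not between clones. The gene lists below were also chosen with earlier results of these data known. Nothing is therefore read from how many of their genes were called or from their medians.

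Stretches upstream of the RefSeq start sites are shown for 4 of the genes, because they hold the motifs that are often discussed for blood cell and inflammatory genes. They are from GRCh38.p14, run 5′ to 3′ on the gene's strand and are written in lower case, with the motif matches in capitals. The PTPRC stretch (chr1:198638790-198638967, plus strand) lay 250 to 73 bases before the start and held an ETS core. The HCLS1 stretch (chr3:121660928-121661127, minus strand) lay 224 to 25 bases before the start and held an AP-1 site and an ETS core. The NLRP3 stretch (chr1:247415956-247416155, plus strand) lay 217 to 18 bases before the start and held a kB-like match and a TATA box. The 30 bases of ICAM1 (chr19:10270924-10270953, plus strand) surround a kB-like match.
PTPRC: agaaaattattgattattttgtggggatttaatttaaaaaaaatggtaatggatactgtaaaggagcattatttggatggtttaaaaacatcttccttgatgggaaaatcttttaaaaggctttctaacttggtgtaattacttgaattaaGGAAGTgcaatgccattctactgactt
HCLS1: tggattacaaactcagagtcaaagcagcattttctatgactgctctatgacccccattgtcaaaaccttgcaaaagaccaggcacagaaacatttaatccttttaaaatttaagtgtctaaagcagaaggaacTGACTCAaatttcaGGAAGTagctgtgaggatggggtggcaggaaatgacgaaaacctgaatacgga
NLRP3: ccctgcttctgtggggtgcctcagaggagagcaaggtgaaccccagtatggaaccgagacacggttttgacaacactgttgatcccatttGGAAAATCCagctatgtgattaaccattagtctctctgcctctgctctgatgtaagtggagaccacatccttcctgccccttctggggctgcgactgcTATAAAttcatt
ICAM1: gctttagcttGGAAATTCCggagctgaagc

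Promoter windows of 300 bases (250 before and 50 after the start) were found in RefSeq for 6 of the 9 genes, with 2 windows for CD83. The motifs searched on both strands were kB-like GGNNNTTCC, ETS core GGAAGT, GC box GGGCGG, AP-1 TGANTCA and TATA box TATAAA. Of 35116 promoter windows of the same length, 20.1% held the kB-like letters, 22.8% the ETS core, 45.0% the GC box, 7.71% the AP-1 site and 11.5% the TATA letters. The kB-like letters began 186 bases before the start of ICAM1, 127 bases before that of NLRP3, and 74 and 50 bases before the second start of CD83. The last of these overlapped an ETS core. The ETS core began 99 and 57 bases before the start of PTPRC. In HCLS1 the AP-1 letters began 91 bases and the ETS core 77 bases before the start. GC boxes began 61 and 44 bases before the start of DPP4 and 206 and 59 bases before that of ICAM1, and the second CD83 window held 5. TATA letters began 30 bases before the start of ICAM1 and 29 bases before that of NLRP3. The first CD83 window held an ETS core 212 bases before its start and TATA letters 243 and 236 bases before it. These are matches of letters, not sites of binding.

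The same windows differed in base composition. PTPRC had a GC content of 33.7% and a ratio of observed to expected CpG of 0.12, and HCLS1 had 45.3% and 0.39. NLRP3 had 54.0% and 0.23. DPP4 had 75.0% and 0.84, ICAM1 had 64.7% and 0.77, and the second CD83 window had 81.3% and 1.10, while the first CD83 window had 37.0% and 0.60, against a median of 58.7% and 0.58 over all windows.

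In both GLO1-depleted clones, 5 of the 9 genes were lower than in shNT (PTPRC, SLAMF7, CD177, ICAM1 and DPP4) and 4 were higher (HCLS1, CD83, PECAM1 and NLRP3). All 9 passed the limits of a call in shGLO1#1 and in shGLO1#2, and the 2 comparisons share the shNT libraries. Among all genes tested, 8.73% were called in shGLO1#1, 5.98% higher and 2.75% lower. In shGLO1#2, 7.68% were called, 5.09% higher and 2.59% lower. For none of the 9 genes did the libraries of either clone overlap those of shNT, which held for 31.2% of all genes tested. Since the genes were chosen with these contrasts known, nothing is read from these counts. The median log2 fold change of the 4 higher genes was 2.08 in shGLO1#1 and 2.63 in shGLO1#2, and that of the 5 lower genes was -1.82 in shGLO1#1 and -1.34 in shGLO1#2.

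**Figure D1:**
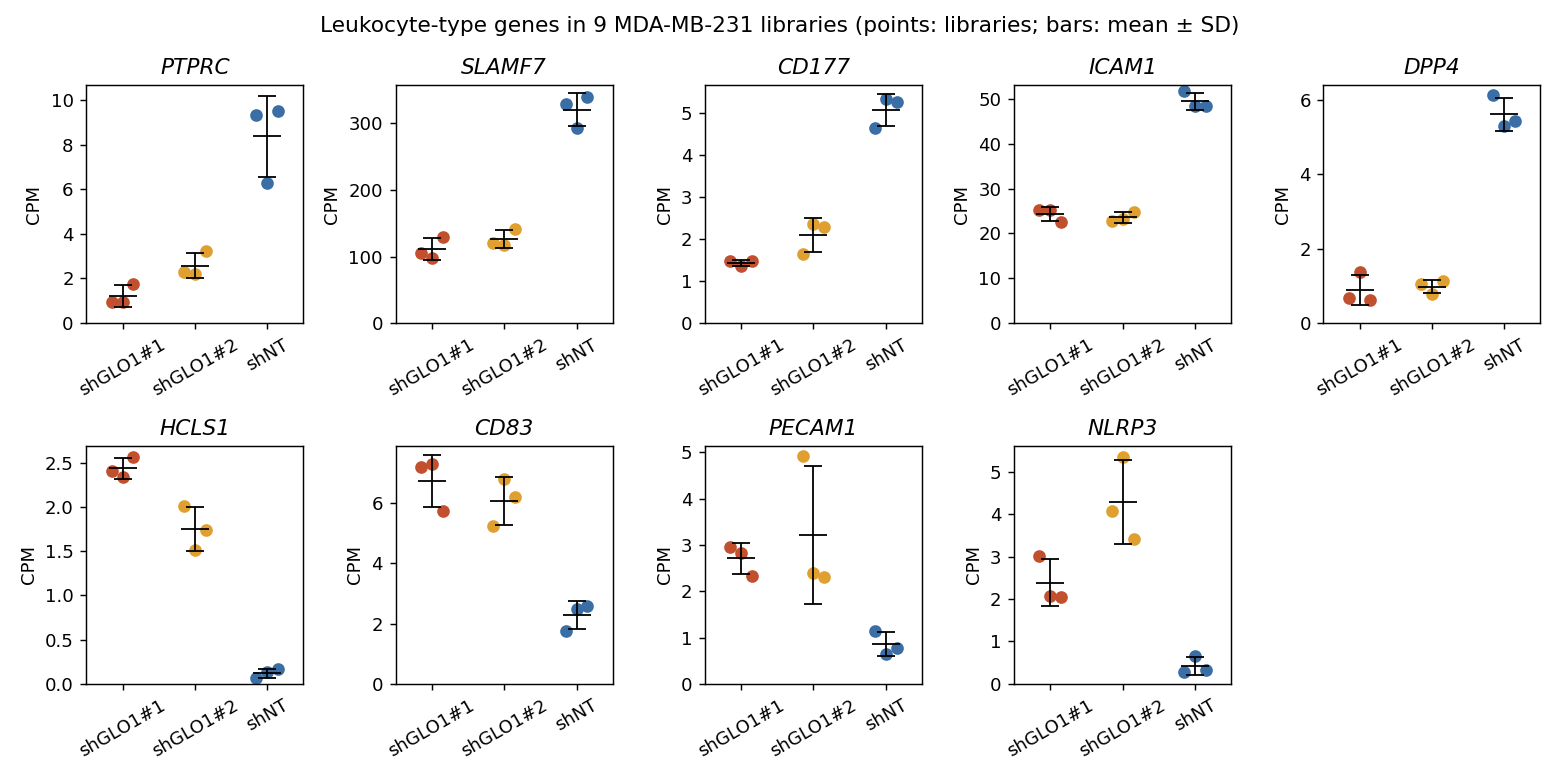
CPM of the 9 leukocyte-type genes (y axis, linear from 0) in the 3 libraries (points) of shGLO1#1, shGLO1#2 and shNT, with the mean and SD of each group as bars. In the upper row all shNT points lie above those of both clones, and in the lower row they lie below them.

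Of the receptors that set signalling thresholds, PTPRC encodes CD45, the transmembrane tyrosine phosphatase of all nucleated blood cells, which acts on SRC family kinases. PTPRC was 0.926, 0.925 and 1.77 CPM in shGLO1#1, 2.31, 2.18 and 3.23 CPM in shGLO1#2 and 9.34, 6.26 and 9.52 CPM in shNT. The 3 groups did not overlap, with shGLO1#1 lowest and shNT highest. How many of all genes tested share such a separation, here and for CD177 and NLRP3 below, was not determined. On the log2 scale PTPRC differed from shNT by -2.79 (SE 0.26) in shGLO1#1 and -1.71 (SE 0.23) in shGLO1#2. The counts behind these values were few, with 63 over the shGLO1#1 libraries, 129 over those of shGLO1#2 and 407 over those of shNT. Among 22 CD45 substrates and relatives, 16 were tested. The only one of these called was PTPN22, a phosphatase of lymphocytes, whose log2 fold change reached 2.13 (SE 0.28, adjusted p = 3.39e-05, edgeR) in shGLO1#1. In shGLO1#2 it was 0.71 (SE 0.33, adjusted p = 0.103, edgeR). LCK, the lymphocyte kinase that CD45 acts on, averaged 0.159 ± 0.133 CPM in shGLO1#1, 0.499 ± 0.362 CPM in shGLO1#2 and 0.237 ± 0.202 CPM in shNT and was too low to test. LYN, a kinase of the same family known from B cells and myeloid cells, averaged 25.5 ± 2.23, 28.1 ± 1.58 and 27.1 ± 0.922 CPM in shGLO1#1, shGLO1#2 and shNT (SD, n = 3 each). Of the widely expressed kinases of the family, SRC differed from shNT by 0.44 (adjusted p = 0.00311, edgeR) and FYN by -0.33 (adjusted p = 2.72e-04, edgeR) in shGLO1#1, and YES1 by -0.56 (adjusted p = 5.99e-06, edgeR) in shGLO1#2, all under the fold limit on the log2 scale.

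SLAMF7 (CS1), a self-binding receptor of natural killer and plasma cells, had by far the most counts of the 9 genes. It was 106, 97.5 and 129 CPM in shGLO1#1, 120, 117 and 142 CPM in shGLO1#2 and 329, 293 and 340 CPM in shNT. The clones overlapped each other and stayed below every shNT library. Against shNT, SLAMF7 had a log2 fold change of -1.53 (SE 0.10) in shGLO1#1 and -1.34 (SE 0.10) in shGLO1#2. SLAMF7 alone made up 69.2 to 76.7% of the summed CPM of the 9 genes in shGLO1#1, 72.5 to 75.9% in shGLO1#2 and 80.9 to 82.4% in shNT. The sum of the other 8 genes was 39.2 to 43.9 CPM in shGLO1#1, 44.0 to 45.2 CPM in shGLO1#2 and 69.2 to 75.1 CPM in shNT. None of 10 SLAM family members and adaptors had enough counts to test. Their summed level was at most 0.435 CPM in shGLO1#1, 1.16 CPM in shGLO1#2 and 0.664 CPM in shNT, far under the SLAMF7 level in every library. SH2D1B, the adaptor through which SLAMF7 signals in natural killer cells, averaged 0.165 ± 0.195 CPM in shGLO1#1, 0.441 ± 0.165 CPM in shGLO1#2 and 0.103 ± 0.0324 CPM in shNT.

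CD177 is a membrane-anchored protein of neutrophils in the Ly6/uPAR family that displays the protease PRTN3 and binds PECAM1. It was 1.48, 1.36 and 1.48 CPM in shGLO1#1, 1.64, 2.35 and 2.30 CPM in shGLO1#2 and 4.64, 5.35 and 5.26 CPM in shNT. The groups lay apart in that order. Against shNT the log2 fold change of CD177 was -1.82 (SE 0.19) in shGLO1#1 and -1.27 (SE 0.18) in shGLO1#2. CD177 shares sequence with the pseudogene CD177P1 and overlaps an antisense gene at its exons, and the libraries do not mark the strand, so its counts are uncertain. PRTN3 was too low to test, with means of 0.0181 CPM in shGLO1#1, 0.0406 CPM in shGLO1#2 and 0.0448 CPM in shNT. Of 21 Ly6/uPAR relatives and CD177 partners, 9 were tested. Called among them were ITGB2 (below) in each clone and LYPD1, higher in shGLO1#1 by 2.39 on the log2 scale (SE 0.31, adjusted p = 3.37e-05, edgeR). In shGLO1#2 LYPD1 was -0.74 (SE 0.44, adjusted p = 0.210, edgeR).

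PECAM1, the adhesion receptor of endothelial junctions that guides leukocytes through vessel walls, was 2.96, 2.83 and 2.34 CPM in shGLO1#1, 4.93, 2.40 and 2.30 CPM in shGLO1#2 and 1.14, 0.652 and 0.775 CPM in shNT. The library of shGLO1#2 replicate 1 was the highest, and the other 5 clone libraries lay close together. PECAM1 exceeded shNT by 1.66 (SE 0.35) in shGLO1#1 and by 1.90 (SE 0.34) in shGLO1#2 on the log2 scale. CD177 and its binding partner PECAM1 thus lay on opposite sides of shNT in each clone. Of 15 PECAM1 partners and transmigration genes, 11 were tested. PVRL3 (nectin-3), an adhesion molecule of cell junctions, rose in each clone, with 60.6 ± 3.93 CPM in shGLO1#1, 63.0 ± 4.55 CPM in shGLO1#2 and 29.9 ± 1.81 CPM in shNT. PVRL3 changed by 1.02 on the log2 scale (SE 0.08, adjusted p = 3.13e-07, edgeR) in shGLO1#1 and 1.07 (SE 0.08, adjusted p = 3.37e-07, edgeR) in shGLO1#2. The first fell to 0.97 without shNT replicate 1 and to 0.96 without shGLO1#1 replicate 3, under the fold limit. The other called gene, SIRPA, was higher in shGLO1#1 by 2.60 on the log2 scale (SE 0.35, adjusted p = 4.97e-05, edgeR). In shGLO1#2 SIRPA was -0.50 (SE 0.55, adjusted p = 0.564, edgeR). SIRPA rested on few counts, 74 over the shGLO1#1 libraries and 11 over those of shNT.

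ICAM1 is the adhesion molecule that leukocyte integrins grip, and inflammatory signals induce it in many cell types. It was 25.2, 25.3 and 22.6 CPM in shGLO1#1, 22.7, 23.2 and 24.9 CPM in shGLO1#2 and 51.7, 48.4 and 48.4 CPM in shNT. The clones covered the same range, and the spread between replicates was the smallest of the 9 genes in shNT (coefficient of variation 3.88%). The log2 fold change was -1.02 (SE 0.08) in shGLO1#1 and -1.07 (SE 0.08) in shGLO1#2, just past the fold limit. In shGLO1#1 it was -0.95 with no scaling factor, -0.99 without shNT replicate 1 and -0.97 without shGLO1#1 replicate 3. ICAM1 overlaps 2 antisense genes at its exons, from which reads cannot be separated here.

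The integrin chain ITGB2, which pairs with ITGAL or ITGAM to bind ICAM1 on leukocytes, fell in both clones. ITGB2 averaged 6.31 ± 1.21 CPM in shGLO1#1, 9.09 ± 2.15 CPM in shGLO1#2 and 22.6 ± 4.97 CPM in shNT (SD, n = 3 each). The change of ITGB2 on the log2 scale was -1.84 (SE 0.20, adjusted p = 5.84e-06, edgeR) in shGLO1#1 and -1.32 (SE 0.19, adjusted p = 9.32e-05, edgeR) in shGLO1#2. The alpha chains were near the floor of detection, with ITGAM at means of 0.0181, 0.0203 and 0.0778 CPM in shGLO1#1, shGLO1#2 and shNT. Of the 18 genes of the ICAM family and leukocyte adhesion, 9 were tested. In shGLO1#1, 3 of the 9 were called lower (ITGB2, MUC1 and ICAM5), and in shGLO1#2, 2 were (ITGB2 and MUC1). ICAM5 was -1.18 in shGLO1#1 and -0.25 (adjusted p = 0.372, edgeR) in shGLO1#2. Among all genes tested, 2.75% were called lower in shGLO1#1 and 2.59% in shGLO1#2. MUC1, a mucin of epithelial cells that can bind ICAM1, changed by -1.08 on the log2 scale (SE 0.26, adjusted p = 0.00395, edgeR) in shGLO1#1. It was -3.57 (SE 0.33, adjusted p = 2.41e-06, edgeR) in shGLO1#2. The call of MUC1 in shGLO1#1 was lost without shNT replicate 3 (-0.82), shGLO1#1 replicate 1 (-0.91) or shGLO1#1 replicate 2 (-0.99). The median log2 fold change of the 9 tested genes was -0.41 in shGLO1#1 and -0.28 in shGLO1#2, beside 0.00 over all genes in each.

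**Figure D2:**
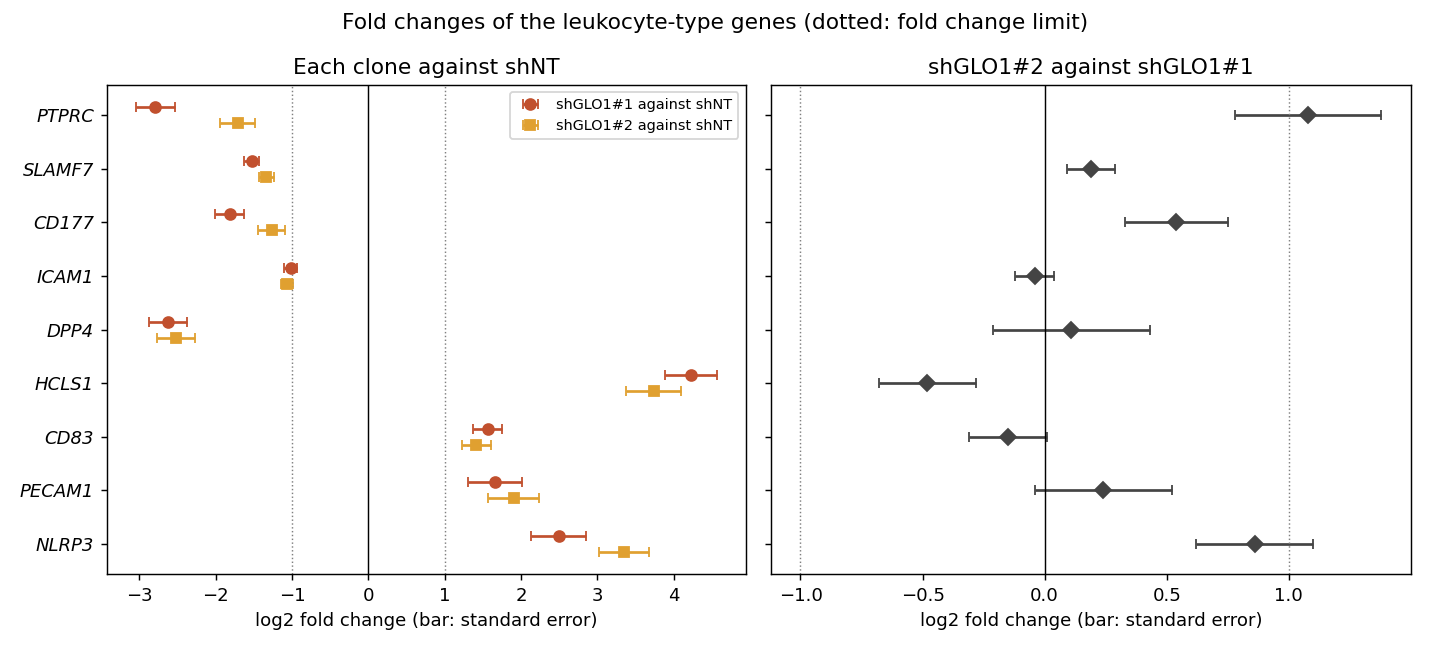
Log2 fold change (x axis, with its standard error as bars) of the 9 genes (rows), in each clone against shNT on the left and in shGLO1#2 against shGLO1#1 on the right. HCLS1 lies farthest to the right of 0 in both clones (4.22 and 3.74), ICAM1 lies closest to the dotted fold limit (-1.02 and -1.07), and between the clones PTPRC (1.08) lies past that limit.

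HCLS1 is the blood cell relative of cortactin (CTTN), an adaptor that links tyrosine kinases to branched actin. It was 2.41, 2.34 and 2.57 CPM in shGLO1#1, 2.01, 1.51 and 1.74 CPM in shGLO1#2 and 0.0672, 0.130 and 0.166 CPM in shNT. The shNT values stood for 1, 2 and 3 counts, so HCLS1 was at the limit of detection in control cells and above it in every clone library. The ratio of depth-scaled summed counts was 19.6 (95% interval 8.76 to 54.4, counting error only) for 127 counts in shGLO1#1 against 6 in shNT. For the 88 counts in shGLO1#2 it was 14.0 (6.20 to 39.3). These intervals leave out the spread between libraries and the choice of HCLS1 on these contrasts, so they are no test. The fitted log2 fold changes, which depend on the prior count at such levels, were 4.22 (SE 0.34) in shGLO1#1 and 3.74 (SE 0.36) in shGLO1#2. CTTN averaged 299 ± 13.9 CPM in shGLO1#1, 322 ± 13.2 CPM in shGLO1#2 and 315 ± 4.34 CPM in shNT, with log2 fold changes of -0.08 (SE 0.05, adjusted p = 0.237, edgeR) in shGLO1#1 and 0.03 (SE 0.05, adjusted p = 0.668, edgeR) in shGLO1#2. Per kilobase of exon, CTTN stood at 43.0 CPM and HCLS1 at 0.479 CPM in shGLO1#1, the clone with the most HCLS1. Of 19 HCLS1 relatives and actin branching genes, 17 were tested. VAV1, a blood cell exchange factor, was called among them, at 1.42 on the log2 scale (SE 0.20, adjusted p = 8.18e-05, edgeR) in shGLO1#2. In shGLO1#1 it was 0.52 (SE 0.21, adjusted p = 0.0579, edgeR).

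NLRP3, the sensor of an inflammasome that myeloid cells use to activate caspase-1, was 3.02, 2.07 and 2.05 CPM in shGLO1#1, 4.08, 5.36 and 3.41 CPM in shGLO1#2 and 0.269, 0.652 and 0.332 CPM in shNT. The groups did not overlap, and shGLO1#2 was highest. The log2 fold change against shNT was 2.49 (SE 0.36) in shGLO1#1 and 3.35 (SE 0.33) in shGLO1#2, from 20 counts over the shNT libraries. The adaptor PYCARD, which joins NLRP3 to the caspase, was low, with 0.762 ± 0.130 CPM in shGLO1#1, 1.42 ± 0.935 CPM in shGLO1#2 and 0.436 ± 0.196 CPM in shNT. Its log2 fold change in shGLO1#2 was 1.68 (SE 0.48, adjusted p = 0.0134, edgeR), and the call was lost without shGLO1#2 replicate 1 (1.02) or shNT replicate 1 (1.45). CASP1, the caspase, averaged 5.28 ± 0.877 CPM in shGLO1#1, 9.09 ± 0.686 CPM in shGLO1#2 and 7.93 ± 0.713 CPM in shNT.

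The 2 cytokines that this inflammasome matures differed from each other. IL18 fell to 47.1 ± 3.03 CPM in shGLO1#1 and 53.6 ± 3.29 CPM in shGLO1#2, against 121 ± 10.2 CPM in shNT, with log2 fold changes of -1.36 (SE 0.08, adjusted p = 3.14e-08, edgeR) and -1.17 (SE 0.08, adjusted p = 1.10e-07, edgeR). IL1B rose in shGLO1#2 by 1.91 on the log2 scale (SE 0.42, adjusted p = 0.00272, edgeR), and was 0.22 (SE 0.52, adjusted p = 0.755, edgeR) in shGLO1#1. It was low, with 0.558 ± 0.187 CPM in shGLO1#1, 1.82 ± 0.966 CPM in shGLO1#2 and 0.474 ± 0.127 CPM in shNT. The counts of IL1B were few, 91 over the shGLO1#2 libraries and 23 over those of shNT. Of 26 inflammasome genes, 17 were tested. In shGLO1#1, 2 were called higher, AIM2 (a sensor of DNA, log2 fold change 2.36) and TXNIP (a protein that binds NLRP3, 1.48), and 1 lower. In shGLO1#2, 2 were called higher (PYCARD and IL1B) and 1 lower. There AIM2 was 0.96 (adjusted p = 0.00358, edgeR) and TXNIP 0.67 (adjusted p = 9.5e-05, edgeR), both under the fold limit. PYCARD was 0.81 (adjusted p = 0.238, edgeR) in shGLO1#1. The list's median was 0.11 in shGLO1#1 and 0.20 in shGLO1#2.

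CD83, a surface marker of mature dendritic cells that keeps MHC class II on the surface by opposing the ubiquitin ligase MARCH1, was 7.22, 7.29 and 5.76 CPM in shGLO1#1, 5.24, 6.81 and 6.21 CPM in shGLO1#2 and 1.75, 2.48 and 2.60 CPM in shNT. The clones overlapped each other, above all shNT libraries. Its log2 fold change was 1.56 (SE 0.19) in shGLO1#1 and 1.41 (SE 0.19) in shGLO1#2. MARCH1 fell to 0.932 ± 0.202 CPM in shGLO1#1 and 0.644 ± 0.270 CPM in shGLO1#2, against 18.3 ± 2.71 CPM in shNT. The log2 fold change of MARCH1 was -4.27 (SE 0.21, adjusted p = 1.23e-08, edgeR) in shGLO1#1 and -4.79 (SE 0.23, adjusted p = 1.15e-08, edgeR) in shGLO1#2. CIITA, the coactivator of MHC class II genes, rose to 6.01 ± 0.622 CPM in shGLO1#1 and 4.36 ± 0.154 CPM in shGLO1#2, against 0.399 ± 0.345 CPM in shNT. For CIITA the log2 fold change was 3.84 (SE 0.36, adjusted p = 2.03e-06, edgeR) in shGLO1#1 and 3.38 (SE 0.38, adjusted p = 1.20e-05, edgeR) in shGLO1#2, from 20 counts over the shNT libraries. Of 16 costimulation genes and CD83 partners, 11 were tested. The other called genes were CD58, higher in shGLO1#1 (log2 fold change 1.06, but 0.95 without shNT replicate 1 and 0.97 without shGLO1#1 replicate 1), and ICOSLG, a costimulatory ligand, lower in shGLO1#1 (-1.68) and in shGLO1#2 (-1.17). ICOSLG was -0.98 in shGLO1#2 without shGLO1#2 replicate 1. CD58 was 0.71 in shGLO1#2 (SE 0.11, adjusted p = 2.41e-04, edgeR), under the fold limit.

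DPP4 (CD26) is a surface protease of T cells and of many epithelia that trims chemokines such as CXCL12. It was 0.679, 1.36 and 0.627 CPM in shGLO1#1, 1.04, 0.782 and 1.12 CPM in shGLO1#2 and 6.11, 5.28 and 5.43 CPM in shNT. The clones overlapped, and every clone library lay below every shNT library. DPP4 had a log2 fold change of -2.63 (SE 0.25) in shGLO1#1 and -2.52 (SE 0.25) in shGLO1#2. DPP4 overlaps an antisense gene at its exons. CXCR4, the receptor of CXCL12, fell to 0.800 ± 0.158 CPM in shGLO1#1 and 7.84 ± 0.503 CPM in shGLO1#2, against 46.8 ± 4.91 CPM in shNT. For CXCR4 the log2 fold change was -5.85 (SE 0.15, adjusted p = 2.20e-11, edgeR) in shGLO1#1 and -2.57 (SE 0.11, adjusted p = 4.98e-09, edgeR) in shGLO1#2. Of 16 DPP4 relatives and partners, 11 were tested, and besides CXCR4 the matrix protein FN1 was called, higher in shGLO1#1 (log2 fold change 1.41, SE 0.10). In shGLO1#2 FN1 was 0.55 (SE 0.09, adjusted p = 4.16e-04, edgeR), under the fold limit. ADA, an enzyme that binds DPP4, differed from shNT by -0.53 (SE 0.30, adjusted p = 0.162, edgeR) in shGLO1#1 and 0.14 (SE 0.28, adjusted p = 0.730, edgeR) in shGLO1#2 on the log2 scale. CAV1, which also binds DPP4, averaged 750 ± 90.0, 584 ± 70.8 and 691 ± 34.9 CPM in shGLO1#1, shGLO1#2 and shNT.

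**Figure D3:**
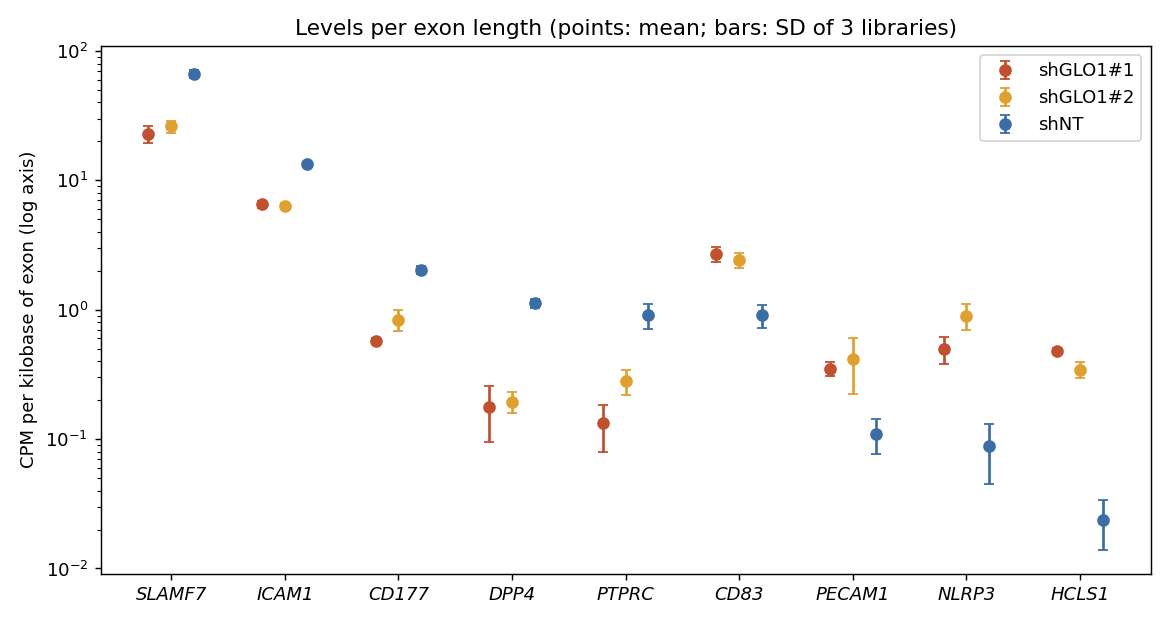
Mean CPM per kilobase of exon (y axis, log scale) of the 9 genes in shGLO1#1, shGLO1#2 and shNT, with the SD of 3 libraries as bars and genes ordered by shNT. SLAMF7 lies highest in all groups (23.0, 26.2 and 66.4), and HCLS1 lies lowest in shNT (0.0238) but not in the clones.

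The genes can be ranked against each other only per length, for which exon lengths of GENCODE 29 were used (94.2% of tested genes matched by symbol). In shNT the mean level of SLAMF7 was 66.4 CPM per kilobase, above 95.5% of tested genes, and that of ICAM1 was 13.4, above 72.1%. CD177 (2.03), DPP4 (1.12), PTPRC (0.913) and CD83 (0.905) followed, and PECAM1 (0.110), NLRP3 (0.0878) and HCLS1 (0.0238) came last. PTPRC and CD83 differed by less than their SD in shNT (0.200 and 0.184), as did PECAM1 and NLRP3 (0.0329 and 0.0432). In shGLO1#1 the lower end was taken by PTPRC (0.132 CPM per kilobase) and DPP4 (0.177), and in shGLO1#2 by DPP4 (0.195) and PTPRC (0.281). These 2 genes then lay below HCLS1 at 0.479 in shGLO1#1 and 0.344 in shGLO1#2. PTPRC and DPP4 differed by less than their SD in shGLO1#1 (0.0531 and 0.0816). In shGLO1#2 the SD was 0.0622 for PTPRC and 0.0494 for HCLS1. PTPRC and DPP4 thus lay above HCLS1 in shNT and below it in the means of the clones, with SLAMF7 and ICAM1 on top throughout. Since the genes were chosen with these contrasts known, nothing is read from this change of order.

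Between the 2 clones, only PTPRC passed the limits of a call. This contrast uses libraries on which the genes were chosen, and genes picked for the same direction in both clones are not a free sample of it, so its p-values are not independent of the choice. It was higher in shGLO1#2 than in shGLO1#1, by 1.08 on the log2 scale (SE 0.30, adjusted p = 0.00979, edgeR). It fell under the fold limit without shGLO1#1 replicate 1 (0.93), shGLO1#1 replicate 2 (0.91) or shGLO1#2 replicate 3 (0.89). NLRP3 was also higher in shGLO1#2, at 0.86 (SE 0.24, adjusted p = 0.00926, edgeR), under the fold limit. It passed that limit, at 1.06, without shGLO1#1 replicate 1. Of all genes tested, 7.09% were called between the clones, 3.33% higher and 3.75% lower in shGLO1#2, and 46.5% had an adjusted p under 0.05, beside 2 of the 9 genes.

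The other 7 genes missed the threshold between the clones in this fit, which has no replicate block. With a block, SLAMF7 and CD177 had an adjusted p under 0.05 (edgeR), and the values that follow are without it. CD177 was 0.54 higher on the log2 scale in shGLO1#2 (SE 0.21, adjusted p = 0.0512, edgeR), and HCLS1 differed by -0.48 (SE 0.20, adjusted p = 0.0707, edgeR). In both, the libraries of the clones did not overlap, but how many of all genes tested shared this was not determined. SLAMF7 differed by 0.19 (SE 0.10, adjusted p = 0.139, edgeR), CD83 by -0.15 (SE 0.16, adjusted p = 0.484, edgeR) and ICAM1 by -0.04 (SE 0.08, adjusted p = 0.668, edgeR). PECAM1 differed by 0.24 (SE 0.28, adjusted p = 0.507, edgeR) and by -0.20 without shGLO1#2 replicate 1, the library that had stood above the rest. DPP4 differed by 0.11 (SE 0.32, adjusted p = 0.798, edgeR), and its standard error leaves room for a change in either direction. The clone with less GLO1, shGLO1#2, had the level farther from shNT for NLRP3, and shGLO1#1 had it for PTPRC. The median absolute log2 fold change of the 9 genes between the clones was 0.24, beside 0.25 over all genes tested.

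Most markers that define leukocytes had too few counts to test. Of 34 such markers, 7 had enough counts to test and 8, among them CD2, TYROBP, MPO, ELANE and NKG7, had no count in any of the 9 libraries. The summed level of the list was 120 to 132 CPM in shGLO1#1, 80.9 to 102 CPM in shGLO1#2 and 15.2 to 26.6 CPM in shNT. LAPTM5, a lysosomal protein of lymphoid and myeloid cells, made up most of that sum, with 114 ± 5.88 CPM in shGLO1#1, 76.7 ± 9.43 CPM in shGLO1#2 and 15.9 ± 5.82 CPM in shNT. For LAPTM5 the log2 fold change was 2.83 (SE 0.18, adjusted p = 7.68e-08, edgeR) in shGLO1#1 and 2.26 (SE 0.18, adjusted p = 6.58e-07, edgeR) in shGLO1#2. The myeloid receptor CSF1R was called in shGLO1#1 (log2 fold change 1.93, SE 0.21, adjusted p = 6.71e-06, edgeR), and the myeloid lectin CD33 in shGLO1#2 (4.43, SE 0.33, adjusted p = 3.80e-07, edgeR). CSF1R was 0.88 in shGLO1#2 (SE 0.23, adjusted p = 0.00751, edgeR), under the fold limit. CD33 averaged 0.271 ± 0.0951 CPM in shGLO1#1, 4.62 ± 0.658 CPM in shGLO1#2 and 0.202 ± 0.117 CPM in shNT. The other tested markers were not called in either clone. Their log2 fold changes in shGLO1#1 and shGLO1#2 were 0.69 and 0.67 for CD8A and 0.40 and 0.36 for LYZ. For KLRD1 they were -0.06 and -0.35, and for CORO1A -0.57 and 0.24. None of 8 erythroid and platelet markers had enough counts to test, and HBA1, HBA2, HBB and GP9 had no count at all. CD53, a surface protein found across white blood cells, had 1 count in all 9 libraries together. In RNA from bulk cultures, fewer cells that carry a gene and less RNA in each cell cannot be told apart.

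Endothelial markers were likewise uneven. Of 20, 7 were tested, and CLDN5, ERG, SOX17 and SELE had no count in any library. Their summed level was 201 to 218 CPM in shGLO1#1, 197 to 229 CPM in shGLO1#2 and 186 to 230 CPM in shNT, most of it ESAM, so that the groups overlapped. VWF (log2 fold change 2.47), ROBO4 (2.51) and TIE1 were called higher in shGLO1#2, and FLT1 was called lower in shGLO1#1 (-2.35). In shGLO1#1, VWF was 0.52 (adjusted p = 0.536, edgeR), ROBO4 0.67 (adjusted p = 7.47e-04, edgeR) and TIE1 1.14 (adjusted p = 0.126, edgeR). FLT1 was -0.67 (adjusted p = 0.133, edgeR) in shGLO1#2. VWF rested on few counts, 42 over the shGLO1#2 libraries and 7 over those of shNT, as did TIE1, with 68 and 14. FLT1 had 15 counts over the shGLO1#1 libraries and 72 over those of shNT. ROBO4, a guidance receptor of vessels, averaged 9.09 ± 0.412 CPM in shGLO1#1, 32.6 ± 2.75 CPM in shGLO1#2 and 5.72 ± 0.826 CPM in shNT. The log2 fold changes in shGLO1#1 and shGLO1#2 were 0.05 and 0.15 for KDR, 0.12 and 0.37 for EGFL7 and 0.02 and -0.23 for ESAM, none of them called. Of the markers of the line itself, the mesenchymal filament gene VIM averaged 3160 ± 162 CPM in shGLO1#1, 4140 ± 233 CPM in shGLO1#2 and 3330 ± 282 CPM in shNT. Of 10 line markers, 8 were tested and none was called. Their median log2 fold change was -0.08 in shGLO1#1 and -0.16 in shGLO1#2, and that of VIM was -0.08 and 0.32. ESR1 was at most 0.255 CPM in the mean of any group. The part of other cells in the levels of the 9 genes was not tested.

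**Figure D4:**
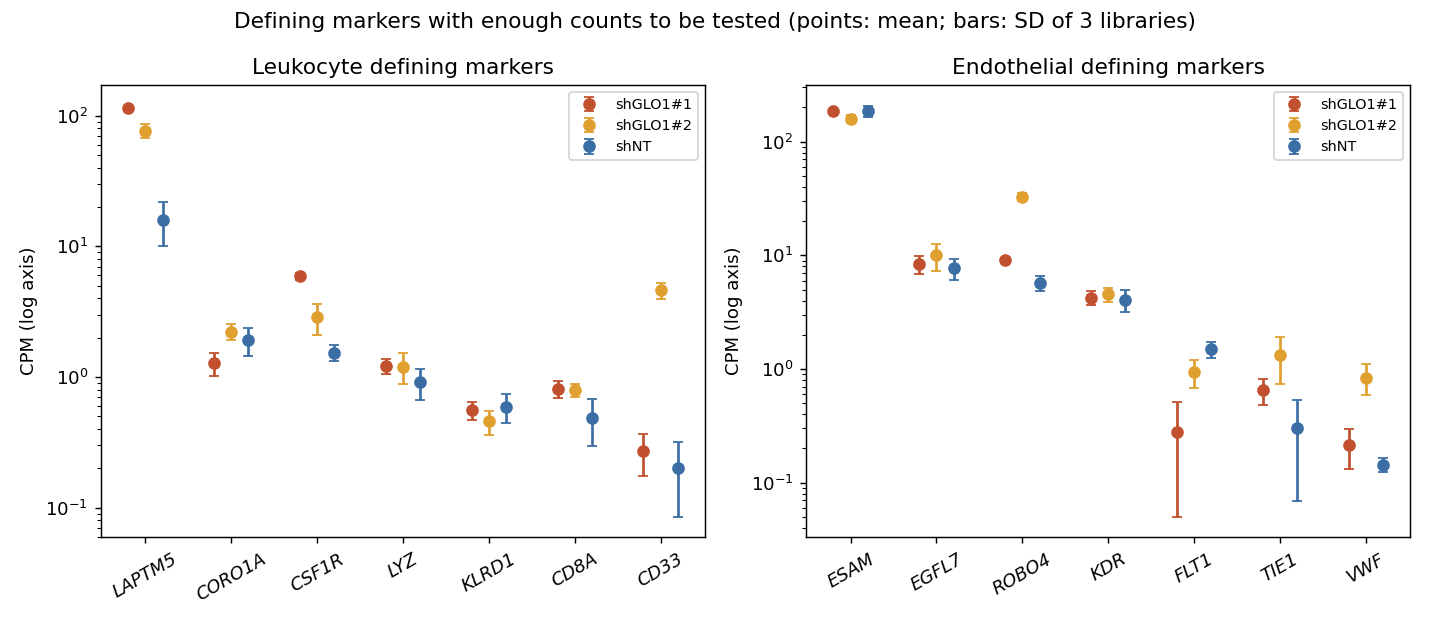
Mean CPM (y axis, log scale) of the 7 leukocyte markers on the left and the 7 endothelial markers on the right that had enough counts to test, in shGLO1#1, shGLO1#2 and shNT, with the SD of 3 libraries as bars. LAPTM5 lies higher in both clones (114 and 76.7) than in shNT (15.9), and CD33 and ROBO4 stand out in shGLO1#2 (4.62 and 32.6).

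Transcription factors that drive blood cell programmes were scanned in the same way. Of 28, 12 were tested and 5 had no count in any library. LMO2, a bridging factor of early blood and endothelial cells, rose in each clone, by 2.88 on the log2 scale (SE 0.55, adjusted p = 7.94e-04, edgeR) in shGLO1#1 and 3.58 (SE 0.50, adjusted p = 8.29e-05, edgeR) in shGLO1#2. It remained low, with 0.972 ± 0.513 CPM in shGLO1#1, 1.57 ± 0.0454 CPM in shGLO1#2 and 0.125 ± 0.0653 CPM in shNT. BCL11A was called higher in shGLO1#1 (3.04), from 47 counts over its libraries and 5 over those of shNT. In shGLO1#2 BCL11A was 0.40 (SE 0.78, adjusted p = 0.729, edgeR). MYB was -0.03 in shGLO1#1 (adjusted p = 0.905, edgeR) and was called lower in shGLO1#2 (-1.01). MYB was under the fold limit at -0.98 with no scaling factor, -0.83 without shNT replicate 3 and -0.94 without shGLO1#2 replicate 3. SPI1, the ETS factor of myeloid cells, was too low to test (at most 0.0224 CPM in the mean of any group). ETS1, an ETS factor of many tissues, averaged 206 ± 11.8 CPM in shGLO1#1, 266 ± 27.2 CPM in shGLO1#2 and 205 ± 17.5 CPM in shNT. RUNX1 averaged 155 ± 4.06, 131 ± 5.86 and 121 ± 11.7 CPM in shGLO1#1, shGLO1#2 and shNT. Of 30 NF-kB factors and targets, 29 were found by symbol (all but IL8) and 26 were tested. CXCL1 (1.11) and PTX3 (1.52) were called, both higher in shGLO1#2. In shGLO1#1 CXCL1 was 0.62 (adjusted p = 0.263, edgeR) and PTX3 0.87 (adjusted p = 7.63e-04, edgeR). The call of CXCL1, with an adjusted p of 0.0453 (edgeR), was lost without shNT replicate 1 or 3 and without shGLO1#2 replicate 3. It was also lost without any 1 of the shGLO1#1 libraries. The same held with no filter on low counts (adjusted p = 0.0563, edgeR) and with DESeq2 (adjusted p = 0.144). The median of that list was 0.10 in shGLO1#1 and 0.08 in shGLO1#2. RELA, the NF-kB subunit, averaged 102 ± 4.69 CPM in shGLO1#1, 117 ± 3.49 CPM in shGLO1#2 and 111 ± 3.97 CPM in shNT.

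**Figure D5:**
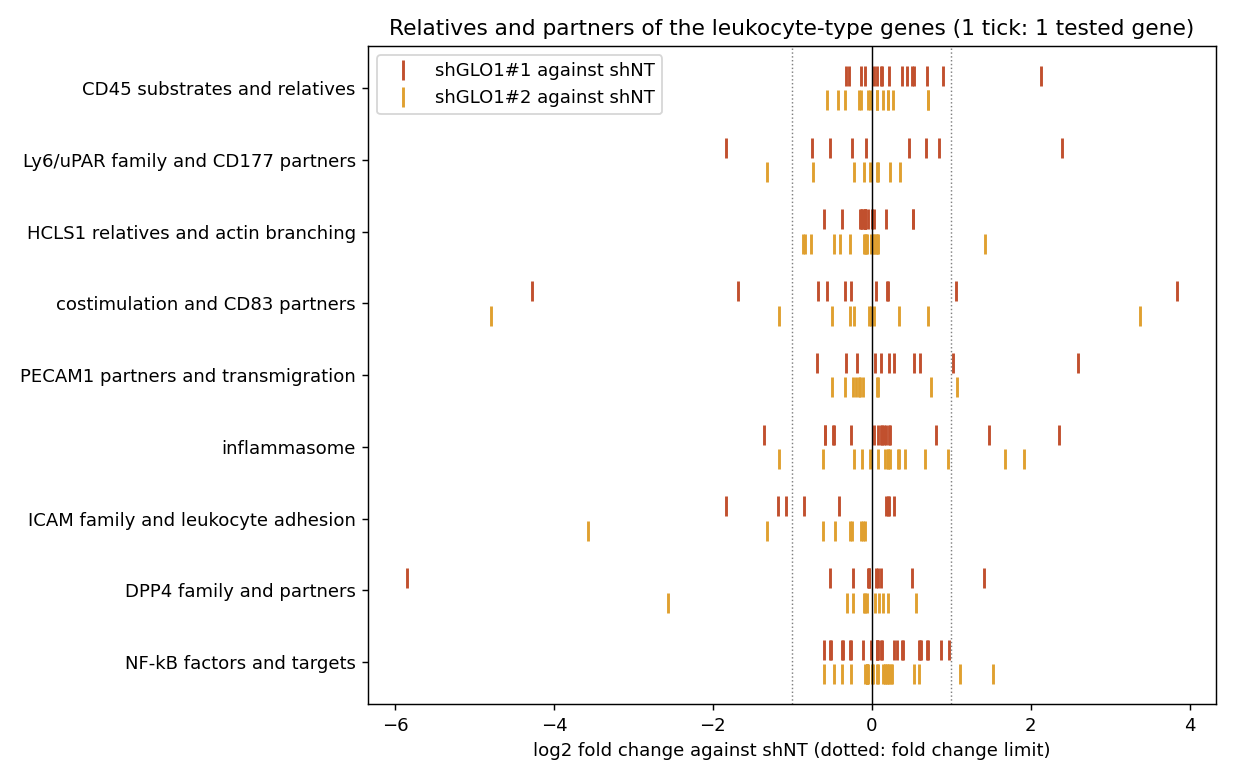
Log2 fold change against shNT (x axis) of each tested gene (1 tick) in 9 lists of relatives, partners and regulators of the leukocyte-type genes (rows), in shGLO1#1 and in shGLO1#2. Most ticks lie between the dotted fold limits, and those far outside include CXCR4 (-5.85 and -2.57), MARCH1 (-4.27 and -4.79) and CIITA (3.84 and 3.38).

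For each of the 9 genes, the 2 other tested genes with the most similar profile were found by Pearson's r of log2 CPM over the 9 libraries, which share 3 groups, so that r is a description only. PTPRC was most like NPLOC4 (0.994) and CHKA (0.993), and SLAMF7 was most like MAL2 (0.993) and MUSK (0.990). CD177 was most like EXPH5 and CYP51A1 (0.994 each), and DPP4 was most like LEPR (0.990) and SYNPR-AS1 (0.988). ICAM1 was most like PSG9 and PSG7 (0.993 each), which belong to a family of near-identical genes whose counts are uncertain. Among the genes that were higher in the clones, HCLS1 was most like RHOJ and S1PR3 (0.994 each) and CD83 was most like SEMA3A (0.991) and TXNDC12 (0.986). PECAM1 was most like RASA3 (0.986) and MPHOSPH8 (0.981), and NLRP3 was most like FOXO3B (0.989) and CLMN (0.988). A like profile could go with a change of another size or of about the same size: the log2 fold change in shGLO1#1 was -3.39 for MUSK beside -1.53 for SLAMF7 and -0.36 for NPLOC4 beside -2.79 for PTPRC, but -2.78 for SYNPR-AS1 beside -2.63 for DPP4 and 2.25 for CLMN beside 2.49 for NLRP3.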

How the data were processed

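Total RNA of 9 MDA-MB-231 cultures (3 libraries each of shGLO1#1, shGLO1#2 and shNT) was sequenced by the authors with a TruSeq kit that does not mark the strand. Per the labels, bcl2fastq 2.17, TopHat2 2.1.1 (hg19) and HTSeq were used, and the authors deposited raw counts per gene symbol. The HTSeq version, annotation and strand setting are not given in the labels. Genes took 77.1 to 79.5% of alignments and no feature 12.8 to 15.2%, and the lines that name no gene stayed out of library sizes. Replicates differed by more than counting noise (chi-square over its degrees of freedom 2.98 to 8.14), so no library was a copy.

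In edgeR 4.0.16 (R 4.3.3), filterByExpr (minimum count 10, minimum total 15) left 13704 of 26364 genes, TMM factors were 0.972 to 1.04, and 1 quasi-likelihood fit of all 9 libraries gave 3 contrasts. Standard errors were taken from the log2 fold change and its F statistic (size of the change over the root of F). Alternatives were RLE or no scaling, DESeq2 1.42.0, no filter, a mean of at least 1 CPM, the 2 compared groups alone, a replicate block and leaving out each library. Deviations from group means correlated between shGLO1#2 and shNT libraries of the same number by 0.28, 0.22 and 0.40. Between shGLO1#1 and shNT libraries they correlated by -0.02, 0.08 and 0.34. Whether the numbers pair the libraries was therefore not settled, and the main fit has no replicate block. Figures were drawn with matplotlib 3.10.9.

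The 9 genes and the gene lists were chosen with earlier results of these data known. All 9 genes are named. Of each list at most 3 genes called in the same direction in both clones were named, by the size of the smaller change, and other list genes named were chosen after their values were seen or as partners of the 9. Names, lengths and overlaps came from GENCODE 29 on GRCh38, and sequences from RefSeq (GRCh38.p14). No hg19 coordinates were used.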

Additional observations from a re-analysis of the deposited data

Results flagged for a closer look

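The measured levels of PTPRC differed between the 2 shRNA clones, though its call was lost when some single libraries were left out, as given above. PTPRC was higher in shGLO1#2 than in shGLO1#1 by 1.08 on the log2 scale (adjusted p = 0.00979, edgeR), in 3 of 3 libraries against 3 of 3. NLRP3 was higher in shGLO1#2 by 0.86 (adjusted p = 0.00926, edgeR), again with no overlap of the libraries. Both genes rest on few counts, with 129 in shGLO1#2 and 63 in shGLO1#1 for PTPRC and 218 in shGLO1#2 and 123 in shGLO1#1 for NLRP3. The 2 genes were chosen on these same libraries, so the p-values are not independent of the choice. Of all genes tested, 46.5% had an adjusted p under 0.05 between the clones (edgeR). The share of all genes with no overlap between the clones was not determined.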

How the results depend on the processing

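Over 16 alternative settings, the 9 genes kept their direction and call in 141 of 144 values in shGLO1#1 against shNT, in 144 of 144 in shGLO1#2 against shNT and in 137 of 144 between the clones. The 9 genes were chosen on these same libraries, so nothing is read from how often they kept a call. The values that left a call, for ICAM1 and PTPRC, stand beside those genes above. The number of the 9 genes called higher in shGLO1#2 than in shGLO1#1 ranged from 0 to 1 when a library was left out, and was 0 without shGLO1#1 replicate 2 or without shGLO1#2 replicate 3. Between the clones, PECAM1 changed sign to -0.20 without shGLO1#2 replicate 1, and DPP4, which ranged from -0.09 to 0.57, to -0.04 without shGLO1#1 replicate 1 and -0.09 without shGLO1#1 replicate 3, all of them values under the threshold. For 33 list genes named above, 996 of 1029 values against shNT kept direction and call, and 28 lost or gained a call. Another 5 changed sign, all of them uncalled: CD33 and MYB in shGLO1#1 and BCL11A in shGLO1#2. Calls were gained by CSF1R in shGLO1#2 (1.01 without shNT replicate 3 and 1.05 without shGLO1#2 replicate 2), AIM2 in shGLO1#2 (1.18 without shNT replicate 2 and 1.02 without shNT replicate 3), PTX3 in shGLO1#1 (1.07 without shNT replicate 2) and TIE1 in shGLO1#1 (1.12 with the replicate block).

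With the replicate block, no call of the 9 genes changed, and 836 genes were called higher and 381 lower in shGLO1#1, 717 and 359 in shGLO1#2. Between the clones, whose numbers correlated by 0.24, 0.06 and 0.43, the adjusted p with the block was 0.00495 for SLAMF7 and 0.0460 for CD177 (edgeR). Scaling moved the median of all genes by at most 0.072. HCLS1, NLRP3 and PECAM1 in shNT, at 6, 20 and 41 counts, are the levels that depth limits most.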
